A study of Homo sapiens with 9 samples.

Results

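Complement is a chain of blood and tissue proteins that marks microbes and damaged cells for removal, and the genes that encode it and its brakes were followed here in HaCaT keratinocytes. The 9 genes were C1R, C1S, C3, CFB, CFI, SERPING1, CD46, CD55 and CD59, chosen by symbol for their place in the complement system, of 16199 genes listed in the deposited tables. HaCaT is an immortalized line of human skin keratinocytes. RNA was sequenced from 3 groups of 3 libraries each, all from wild-type HaCaT cells kept in serum-free medium, with the treatments given after the cells were confluent. The untreated group had medium alone, the EGF group had 10 nM epidermal growth factor for 24 h, and the bleogen pB1 group had 1 µM bleogen pB1 for 24 h. Bleogen pB1 is a cactus peptide that activates the same receptor as EGF, and the doses of the 2 agents differ.

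Complement can be started by antibody through the C1 complex, in which the serine protease C1R activates C1S, which cuts the next components. It can also be started by the alternative pathway, in which CFB joins activated C3 to form an enzyme that cuts more C3. Both routes meet at C3, the central component, whose fragments coat targets and lead on to the membrane attack complex. Host cells limit this with soluble inhibitors and with proteins on their own surface, and keratinocytes are known to make several of these proteins themselves.

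Sequences just upstream of a RefSeq start site are shown for CFB and C1R, the members with the largest differences under EGF. They come from RefSeq promoters of build GRCh38.p14, in which 6 of the 9 members had an entry, and run 5′ to 3′ on the strand of the gene. The entries were searched over the 250 bases before each start site, on both strands, for the interferon-stimulated response element (ISRE), the gamma-activated sequence (GAS, TTCNNNGAA), the kappaB motif and the AP-1 motif (TGANTCA). Capitals mark the matches, which in CFB are, in order, an ISRE, a kappaB motif and a GAS, and in C1R a GAS. The CFB stretch is chr6:31945935-31946034 on the plus strand, from 160 to 61 bases before the start. The C1R stretch is chr12:7091924-7092023 on the minus strand, from 130 to 31 bases before the second of 2 start sites. Both stretches fall inside the span that GENCODE v44 gives their gene, and that of C1R also inside the span of C1RL.
CFB: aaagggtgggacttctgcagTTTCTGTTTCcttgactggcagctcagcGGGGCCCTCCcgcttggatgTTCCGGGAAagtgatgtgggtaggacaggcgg
C1R: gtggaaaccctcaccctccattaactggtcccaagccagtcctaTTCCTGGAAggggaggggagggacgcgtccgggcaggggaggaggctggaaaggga
Among 35116 promoters in the RefSeq table, 3.02% held an ISRE match, 6.57% a GAS match, 9.96% a kappaB match and 6.57% an AP-1 match within the same window. The CFB matches lay 140 to 131 bases (ISRE), 112 to 103 bases (kappaB) and 92 to 84 bases (GAS) before its start, and the C1R match 86 to 78 bases before. In CD59, a GAS match was present at the first and second of 4 start sites and an AP-1 match at the fourth. The entries of CFI, CD46 and CD55, and that of the first C1R start site, held no match to these letters in the window. C1S, C3 and SERPING1 were the other members. A match is a description of letters and was not tested as a binding site.

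The libraries were of similar depth, with totals of 20288417 to 21320994 expected counts, so that 3 counts corresponded to 0.141 to 0.148 CPM (counts scaled to the library total). All 8 keratinocyte markers examined were at 1 CPM or more on average in each group, with summed levels of 13456 to 15071 CPM in untreated, 11548 to 11670 CPM in EGF and 13912 to 16717 CPM in bleogen pB1 libraries. Markers of other cell types were low in comparison. Leukocyte and macrophage markers summed to at most 2.48 CPM in any library, with AIF1 at or near 0, and melanocyte markers to at most 1.58 CPM.

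The members spanned a wide range of levels in untreated cells when compared per length as FPKM (fragments scaled to transcript length and library depth). CD46, a membrane cofactor for the cleavage of activated C3, led with 126.4 FPKM (SD 4.44, n = 3) and ranked 540 of 15250 genes above 0. C3 followed at 25.1 FPKM (SD 1.70) and CD59, the membrane inhibitor of the attack complex, at 22.6 FPKM (SD 0.569), with overlapping ranges, so their order was not separated by the libraries. CD55, the membrane protein that takes apart the enzymes that cut C3, had 7.78 FPKM (SD 0.243). The proteases were lower, with C1R at 6.02 FPKM, CFB at 2.67 FPKM and C1S at 1.46 FPKM, and CFI at 1.15 FPKM. SERPING1, the inhibitor of C1R and C1S, was at the detection limit. The membrane regulators CD46, CD55 and CD59 together summed to 152.8 to 161.6 FPKM, against 34.3 to 37.9 FPKM for the 6 soluble components and regulators. The order of the 9 genes was the same in each group when CPM per kilobase was used in place of FPKM.

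**Figure D1:**
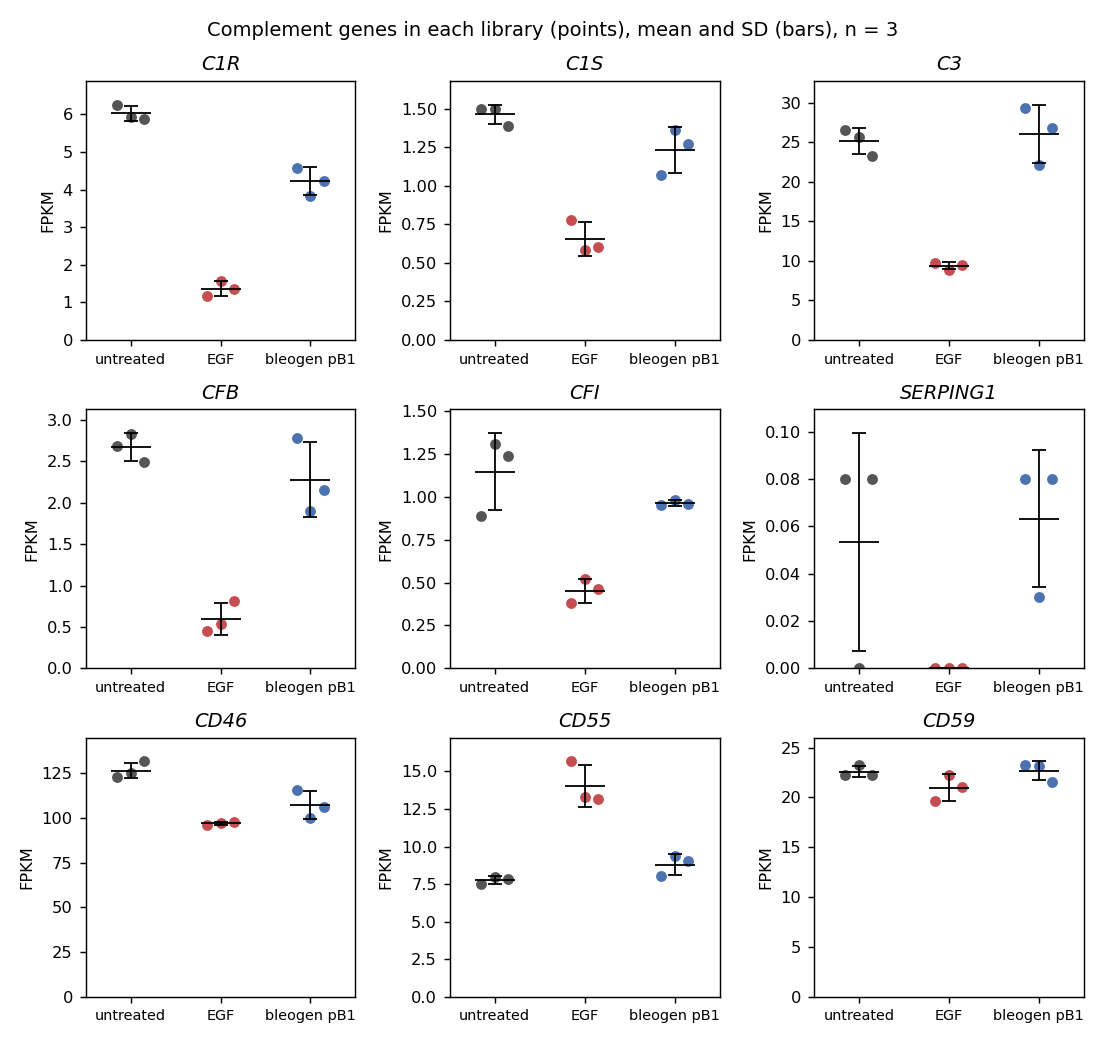
FPKM of the 9 complement genes (vertical axes, each from 0) in untreated, EGF and bleogen pB1 libraries, with 1 point per library and the mean and SD of 3 libraries as bars. The EGF points of C1R, C1S, C3, CFB, CFI and CD46 lie below all untreated points, those of CD55 lie above them, and those of CD59 overlap the untreated range.

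The first comparison asked how 24 h of EGF altered the expression of these genes. Expression of C1R, C1S, C3, CFB and CFI fell, by 2.15-fold to 4.25-fold, and that of CD55 rose 2.07-fold, while CD46 and CD59 were not called. A gene was called when edgeR's quasi-likelihood test gave a Benjamini-Hochberg adjusted p of at most 0.05 and the log2 fold change was at least 0.5 in size. CD46 met the limit on adjusted p but not that on fold, and CD59 met neither. Of the 8 members tested, 5 were lower, 1 was higher and 2 were not called, whereas of all 12394 genes tested 36.9% were called, 21.8% lower and 15.1% higher. The members had a median log2 fold change of −1.19 and all genes one of −0.01. The members were chosen by symbol but with earlier results of these data known, so this contrast is descriptive only. In bulk RNA, fewer cells expressing a gene and less of its RNA per cell cannot be told apart. No source says that the libraries of a group came from separate cultures, so the p-values measure the spread between these samples, which may be technical.

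C1R, the protease that activates C1S, had 6.26, 5.93 and 5.88 FPKM in untreated libraries and 1.18, 1.56 and 1.35 FPKM under EGF. The highest EGF library was well below the lowest untreated library. Its log2 fold change was −2.08 (SE 0.13, 95% interval −2.35 to −1.80, edgeR adjusted p = 3.83e-08). C1S, which C1R activates and which cuts C4 and C2, had 1.5, 1.5 and 1.39 FPKM untreated and 0.78, 0.58 and 0.60 FPKM under EGF, from 80 to 84 and 33 to 44 counts per library. These ranges also did not overlap, and the log2 fold change was −1.11 (SE 0.18, interval −1.501 to −0.709, edgeR adjusted p = 0.00016). The ratio of C1R to C1S in FPKM was 4.12 (SD 0.146) in untreated libraries and 2.15 (SD 0.595) under EGF, with ranges of 3.95 to 4.23 and 1.51 to 2.69. The pair are neighbours on chromosome 12, C1S at chr12:6988259-7071032 on the plus strand and C1R at chr12:7080214-7092540 on the minus strand, with 9181 bases between them (GENCODE v44, GRCh38). C1R shares exonic sequence with its neighbour C1RL on the same strand, and the split of reads between the pair is that of the deposited counts.

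C3 had 26.48, 25.70 and 23.23 FPKM in untreated libraries and 9.75, 8.85 and 9.51 FPKM under EGF. All EGF libraries sat in a narrow band below the untreated ones, at a log2 fold change of −1.36 (SE 0.10, interval −1.57 to −1.15, edgeR adjusted p = 1.5e-07). Among genes above 0 its rank moved from 3237 of 15250 to 6371 of 15149. The gene is on the minus strand at chr19:6677704-6730562.

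CFB, the protease component of the alternative pathway enzyme, had 2.69, 2.83 and 2.49 FPKM untreated and 0.45, 0.53 and 0.81 FPKM under EGF, or 132 to 148 against 24 to 45 counts per library. Its log2 fold change of −2.09 (SE 0.22, interval −2.56 to −1.61, edgeR adjusted p = 3.97e-06) was of the size seen for C1R. CFB lies on the plus strand at chr6:31945650-31952086, where the annotation gives C2 exons that overlap it on the same strand. C2 itself had no more than 5 counts in any library. The ratio of C3 to CFB in FPKM was 9.42 (SD 0.389) in untreated libraries and more variable under EGF, at 16.7 (SD 4.96).

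Of the soluble regulators, CFI, the protease that inactivates C3 and C4 fragments, had 0.89, 1.31 and 1.24 FPKM untreated and 0.38, 0.52 and 0.46 FPKM under EGF. The groups did not overlap, but the counts behind them were low, 39 to 57 untreated and 17 to 23 under EGF. The log2 fold change was −1.27 (SE 0.24, interval −1.78 to −0.76, edgeR adjusted p = 0.000404). SERPING1 had 3, 0 and 3 counts in untreated, 0, 0 and 0 in EGF and 3, 1 and 3 in bleogen pB1 libraries. None exceeded the limit of 3 counts. SERPING1 did not pass the count filter of the test, so no fold was formed, and a difference was not detectable at this depth. The summed level of the 6 soluble genes was 12.04 to 12.73 FPKM under EGF.

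The membrane regulators CD46, CD55 and CD59 together summed to 131.5 to 132.6 FPKM under EGF, below the untreated sums, and CD55 alone among them was called. CD55 had 7.52, 8.0 and 7.83 FPKM untreated and 15.66, 13.33 and 13.14 FPKM under EGF, so that every EGF library was above every untreated one. Its log2 fold change was 1.05 (SE 0.10, interval 0.83 to 1.27, edgeR adjusted p = 1.98e-06). CD46 had 123.08, 124.77 and 131.47 FPKM untreated and 96.21, 96.95 and 97.67 FPKM under EGF. These ranges did not overlap and the adjusted p was 0.000484 by edgeR, but the log2 fold change of −0.32 (SE 0.06, interval −0.45 to −0.19) was under the fold limit of 0.5. CD59 had 22.24, 23.25 and 22.29 FPKM untreated and 19.62, 22.28 and 21.08 FPKM under EGF, with overlapping ranges. The interval of its log2 fold change, −0.18 to 0.08, covered 0 (edgeR adjusted p = 0.517).

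CD55 and CD46 lie near each other on the long arm of chromosome 1, at chr1:207321519-207386804 and chr1:207752037-207795513, both on the plus strand, and their levels drew closer under EGF. The ratio of CD55 to CD46 in FPKM was 0.0616 (SD 0.00232) in untreated libraries and 0.145 (SD 0.0155) under EGF. The ratio of CD55 to C3 went from 0.311 (SD 0.0265) to 1.498 (SD 0.112), so that CD55 was above C3 in each EGF library and below it in each untreated one. The order of levels under EGF was CD46 at 96.9 FPKM, CD59 at 20.99, CD55 at 14.0, C3 at 9.37 and C1R at 1.36 FPKM. C1S at 0.653, CFB at 0.597 and CFI at 0.453 FPKM followed, and the range of CFB overlapped those of both C1S and CFI.

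**Figure D2:**
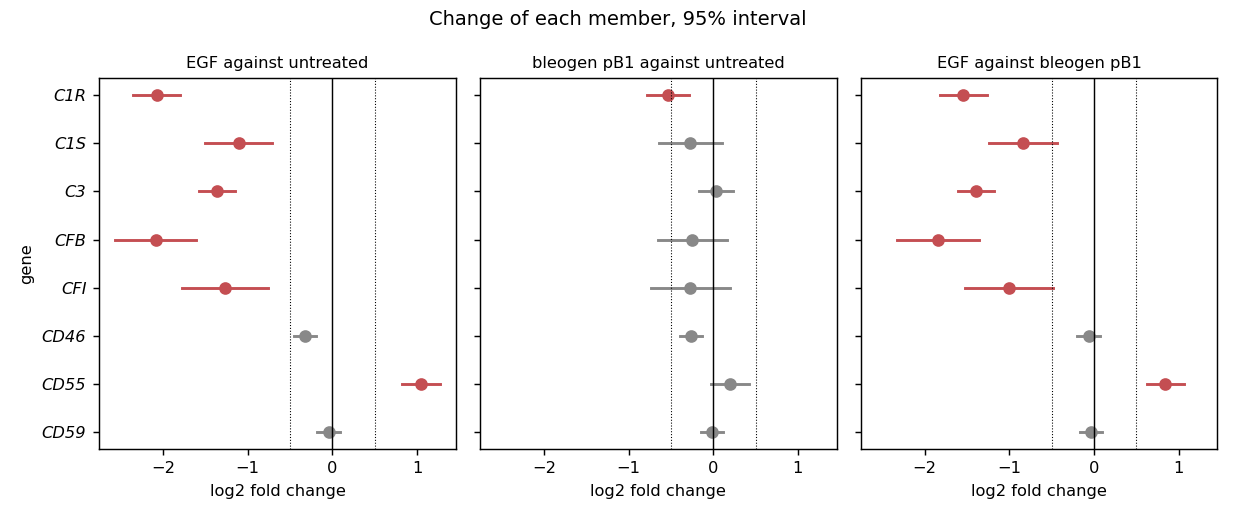
Log2 fold change (horizontal axis) of the 8 tested members in each of 3 comparisons, with 95% intervals, red where called and grey where not, and dotted lines at the fold limit of 0.5. Under EGF, C1R, C1S, C3, CFB and CFI sit to the left and CD55 to the right in both comparisons, whereas C1R alone is called for bleogen pB1 against untreated.

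The deposited tables give for each gene an average transcript length, which can differ between libraries with the mix of transcripts, and this length was stable for most members. C1R, C3 and CFB had the same value in all libraries, C1S varied between 2769 and 2856 bases over 3 transcripts, CD46 varied between 3280.52 and 3288.98 bases over 8 transcripts, and CD59 between 7646.48 and 7653.30 bases over 8. CD55, with 5 RefSeq transcripts, moved more. Its lengths were 2370.01, 2334.22 and 2284.77 bases untreated, 2553.01, 2462.15 and 2616.44 bases under EGF, and 2327.57, 2507.85 and 2369.89 bases under bleogen pB1. The EGF libraries were all above the untreated ones, by 214.2 bases on average (177.9 to 255.1 bases with 1 library left out), and 1 bleogen pB1 library lay within the EGF range. FPKM divides by this length, so the CD55 difference in FPKM was smaller than that in counts. How the authors weighted the transcripts is not given in the sources used here, and the lengths were not tested.

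**Figure D3:**
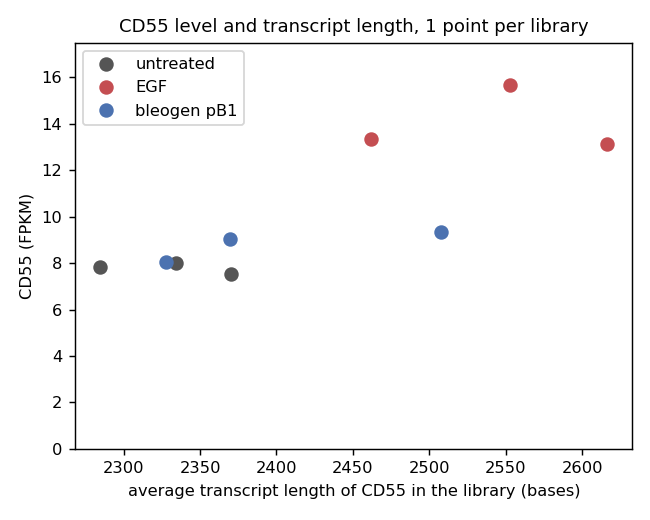
CD55 level in FPKM (vertical axis, from 0) against the average length of CD55 transcripts in bases (horizontal axis, not from 0), 1 point per library. The EGF libraries lie at the upper right, between 13.14 and 15.66 FPKM and 2462.15 and 2616.44 bases, above every untreated and bleogen pB1 library in level.

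Markers of some other cell types moved with EGF at low levels. Fibroblast markers summed to 7.62 to 9.31 CPM in untreated, 1.25 to 2.00 CPM in EGF and 6.08 to 9.17 CPM in bleogen pB1 libraries, carried by COL1A1 and COL3A1. Endothelial markers summed to 3.44 to 4.78, 0.289 to 0.504 and 1.16 to 1.91 CPM in the same order, carried by CDH5 and VWF. Hepatocyte markers summed to 0.573 to 1.33 CPM in untreated and 4.10 to 4.48 CPM in EGF libraries, which was SERPINA1, with ALB, APOB and TTR at 0. Their part in the complement results was not tested.

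The second comparison asked the same of bleogen pB1, against the same untreated libraries. Of the 8 members tested 1, C1R, was lower and 7 were not called, where 1.48% of all genes tested were called and 1.26% were called lower. The median log2 fold change was −0.25 for the members and −0.001 for all genes. C1R had 4.58, 3.84 and 4.23 FPKM under bleogen pB1, below each untreated library and above each EGF library. It fell 1.45-fold, at a log2 fold change of −0.53 (SE 0.11, interval −0.78 to −0.29, edgeR adjusted p = 0.0222), close to the fold limit. The call was lost without any one of untreated replicates 1, 2 and 3 (edgeR adjusted p = 0.129, 0.0793 and 0.0634) or bleogen pB1 replicates 2 and 3 (0.0858 and 0.109). It was kept without bleogen pB1 replicate 1 (0.0104).

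The remaining soluble genes overlapped with untreated libraries in level or had intervals that covered 0. C3 had 29.36, 22.05 and 26.72 FPKM, on both sides of the untreated values, and its log2 fold change was 0.03 (interval −0.17 to 0.24, edgeR adjusted p = 0.868). Without untreated replicate 3 or without bleogen pB1 replicate 1 its sign turned. CFB had 2.78, 1.90 and 2.15 FPKM and a log2 fold change of −0.25 (interval −0.66 to 0.16). C1S had 1.07, 1.36 and 1.27 FPKM, each below the lowest untreated library, with an interval of −0.64 to 0.10. CFI had 0.95, 0.98 and 0.96 FPKM, inside the untreated range, with an interval of −0.73 to 0.19. The intervals of C1S, CFB and CFI thus did not exclude differences of the fold limit.

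Among the membrane regulators, CD46 had 115.35, 99.63 and 106.17 FPKM under bleogen pB1, below each untreated library. Its log2 fold change of −0.26 (interval −0.39 to −0.13, edgeR adjusted p = 0.0362) was under the fold limit and close in size to that under EGF. CD55 had 8.03, 9.34 and 9.02 FPKM, each above the highest untreated library but with an interval of −0.02 to 0.43 (edgeR adjusted p = 0.274). CD59 had 23.24, 23.19 and 21.59 FPKM and an interval of −0.14 to 0.12, which lies inside the fold limit. The order of levels in bleogen pB1 libraries, from CD46 at 107.1 FPKM through C3 at 26.0, CD59 at 22.7, CD55 at 8.80, C1R at 4.22, CFB at 2.28 and C1S at 1.23 to CFI at 0.963 FPKM, was that of untreated cells, with C3 and CD59 again overlapping.

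The third comparison set EGF directly against bleogen pB1, at their different doses. The members called were C1R, C1S, C3, CFB and CFI, lower with EGF, and CD55, higher, where 28.8% of all genes were called, 18.0% lower and 10.8% higher. The median log2 fold change was −0.92 for the 8 members and −0.01 for all genes. CFB differed by −1.84 (interval −2.32 to −1.36, edgeR adjusted p = 1.91e-05), C1R by −1.54 (interval −1.82 to −1.26, 8.63e-07) and C3 by −1.40 (interval −1.61 to −1.19, 1.68e-07). For each of these, all EGF libraries were below all bleogen pB1 libraries. CFI differed by −1.002 (interval −1.52 to −0.48, edgeR adjusted p = 0.0032), C1S by −0.84 (interval −1.24 to −0.43, 0.00193) and CD55 by 0.84 (interval 0.63 to 1.06, 1.6e-05). CD46 and CD59 were not called, and their intervals of −0.20 to 0.07 and −0.17 to 0.10 lay inside the fold limit. This comparison and the first share the EGF libraries, and the first and second share the untreated ones, so the values are given side by side only.

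The rest of the complement system was followed with a list of 49 other genes, of which 31 had a count in any library, 9 passed the count filter, 22 had counts too low to test and 18 had no entry. Under EGF, 4 of the 9 were lower, 3 were higher and 2 were not called, with a median log2 fold change of −0.75. Among all genes tested 21.8% were lower and 15.1% higher, with a median of −0.01. C1RL, a relative of C1R, had 19.54, 18.12 and 16.27 FPKM untreated and 5.37, 5.35 and 5.13 FPKM under EGF, and fell by 1.68 on the log2 scale (edgeR adjusted p = 1.38e-07).

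C5, which starts the attack complex, fell by 1.92 on the log2 scale from 0.73 to 0.177 FPKM on average (edgeR adjusted p = 1.17e-05). CLU, a secreted chaperone that also blocks the attack complex, fell by 1.12 from 123.5 to 54.5 FPKM (5.53e-07). C1QBP, a mostly mitochondrial protein that can bind C1q, rose by 0.68 from 236.8 to 360.0 FPKM (6.17e-06). The other calls were on few counts. C4A had 0, 0 and 10.54 counts untreated and 11.72 to 29.64 under EGF (adjusted p = 0.0181 by edgeR), it has a near-identical copy in C4B, and the call was lost without untreated replicate 1, untreated replicate 2 or EGF replicate 3 (0.0662, 0.0674 and 0.0941). ITGAM, a subunit of complement receptor 3, had 7 to 17 counts untreated and 8, 50 and 36 under EGF (adjusted p = 0.0318 by edgeR), and the call was lost without untreated replicate 1 or 2 or EGF replicate 2 or 3 (0.0830 to 0.156). C5AR1, the C5a receptor, and MASP2, a protease of the lectin pathway, had log2 fold changes of −0.50 and −0.75 and were not called (edgeR adjusted p = 0.0825 and 0.0818).

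Under bleogen pB1, 1 of the 9 was lower and 8 were not called, where 1.48% of all genes tested were called and 1.26% were lower. The 9 had a median log2 fold change of −0.12. C1RL had 15.31, 11.12 and 13.80 FPKM and a log2 fold change of −0.44 (adjusted p = 0.0488 by edgeR), under the limit. For EGF against bleogen pB1, 4 of the 9 were lower, 1 was higher and 4 were not called. Of all genes tested, 18.0% were lower and 10.8% higher. Those lower with EGF included C5 (−1.80), C1RL (−1.25) and CLU (−0.93), and ITGAM was higher (1.41). The ITGAM call was lost without any one of 5 libraries, untreated replicate 2, EGF replicates 2 and 3 and bleogen pB1 replicates 1 and 2 (edgeR adjusted p = 0.0554 to 0.183).

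**Figure D4:**
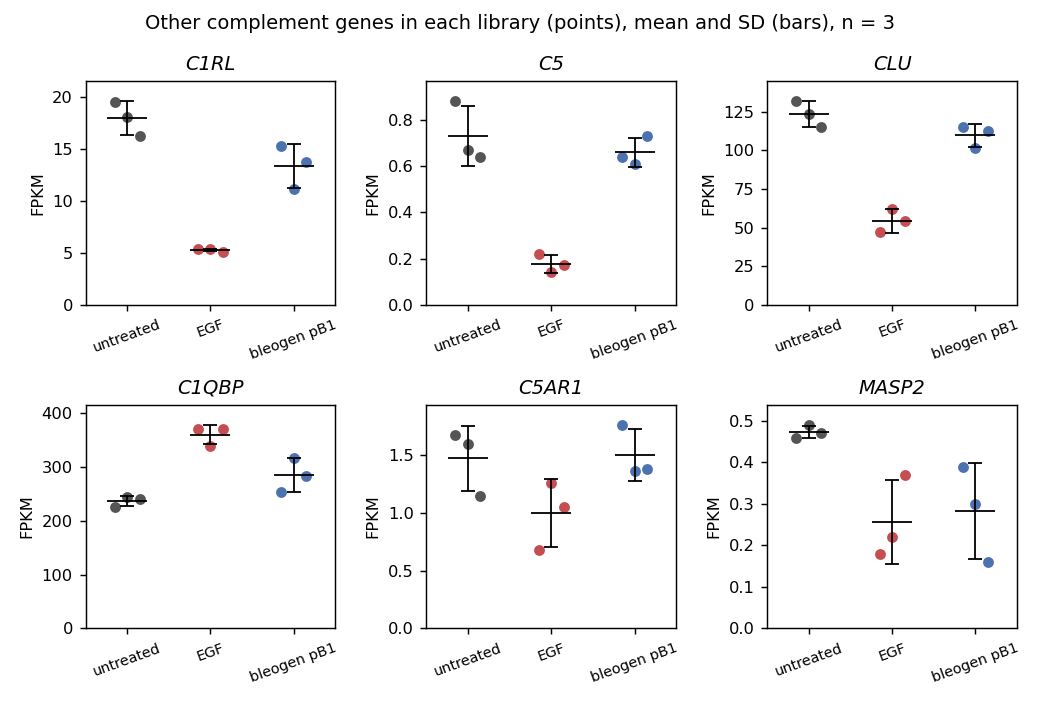
FPKM (vertical axes, each from 0) of C1RL, C5, CLU, C1QBP, C5AR1 and MASP2 in the 3 groups, with 1 point per library and the mean and SD of 3 libraries as bars. EGF points of C1RL, C5 and CLU lie below, and those of C1QBP above, all points of the other groups, whereas the EGF points of C5AR1 overlap the untreated ones and those of MASP2 overlap the bleogen pB1 ones.

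Regulators that textbooks give as inducers of complement genes were listed as well, namely 18 transcription factors and receptors of the interferon, interleukin and NF-kappaB pathways, all of which were tested. Under EGF, 6 were lower, 5 higher and 7 not called, with a median log2 fold change of 0.01. Of all genes tested, 36.9% were called in this comparison, 21.8% lower and 15.1% higher. STAT2, a part of the complex that binds ISRE sites, had 59.22, 53.32 and 51.44 FPKM untreated, 10.03, 14.18 and 12.41 FPKM under EGF and 40.21, 30.52 and 34.79 FPKM under bleogen pB1. The groups did not overlap, and the log2 fold change under EGF was −2.10 (edgeR adjusted p = 2.21e-08). IRF9, another part of that complex, fell by 1.57 (5.53e-08). IRF1, an interferon-induced activator, fell by 0.61 (6.66e-05), and was just under the fold limit without EGF replicate 1 (log2 fold change −0.4985).

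STAT2 fell by 0.65 under bleogen pB1 (edgeR adjusted p = 0.00727), a call lost without untreated replicate 1 or bleogen pB1 replicate 3 (0.0541 and 0.0513), and IRF9 had a log2 fold change of −0.40 (0.0393), under the limit. NFKB2, a subunit of the noncanonical NF-kappaB pathway, rose by 1.45 under EGF (edgeR adjusted p = 3.12e-05). CEBPB, an activator of acute-phase genes, rose by 0.84 (1.42e-05), and IL6ST, the shared receptor of interleukin-6 type cytokines, by 0.59 (5.91e-05). The IL6ST call ended with upper-quartile scaling (0.49), and with limma on log2(FPKM + 1) the value was 0.4986, just under the fold limit. IFNGR2, a chain of the interferon gamma receptor, rose by 0.50 (2.75e-05), at the fold limit, and was under it without untreated replicate 3 or EGF replicate 1 (0.45 and 0.48) and with upper-quartile scaling (0.40). Of the 18 in this list, 2 were called lower and 0 higher under bleogen pB1, where 1.26% of all genes tested were lower and 0.218% higher. Whether any of these regulators acted on the complement genes was not tested.

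Across the 9 libraries, the log2 CPM of the soluble members moved together as a description of 3 groups that share their treatments. Pearson correlations were 0.965 for C1R with CFB and for C3 with CFB, −0.989 for C1R with CD55, and at most 0.505 in size for CD59 with any other member. Among 10868 genes with at least 50 counts on average, those most like C3 were DEFB1 (0.998), IVNS1ABP (0.998) and RARRES3 (0.997), those most like CFB were VIT (0.992), HPS1 (0.990) and DHRS1 (0.990), and those like CD55 included ADORA2B (0.994) and EIF5A (0.994). Correlations of 0.9 or more were common, with 1937, 1758 and 2014 such genes for C3, CFB and CD55, since the points share the EGF contrast.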

How the data were processed

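RNA of 9 HaCaT libraries was analysed (untreated, EGF and bleogen pB1, 3 each). Poly(A) libraries with dUTP second strands were sequenced by BGI, and reads were mapped to GRCh38.p12. The counting tool and its strand setting are not given in the sources used here. The deposited tables hold expected counts per gene, not normalized, FPKM scaled by the authors to length and depth, and the authors' average transcript length. A gene absent from a table was set to 0.

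Expected counts were rounded and tested with edgeR 4.0.16 (R 4.3.3; filterByExpr, 12394 genes, TMM factors, glmQLFTest, all 9 libraries in a single fit, 6 residual degrees of freedom). Genes were called at an adjusted p of at most 0.05 and a log2 fold change of at least 0.5 in size. The steps were tested on simulated data with 200 of 12394 genes changed, as many up as down. For EGF 36.9% of genes were called, so the simulation does not check the steps at that share. Of 100 genes changed 2-fold, edgeR recovered 94 for EGF and 93 for bleogen pB1. Of 100 genes changed 1.5-fold it recovered 65 and 66. Unchanged genes that it called numbered 5 and 7. Alternatives used DESeq2 1.42.0, limma 3.58.1, other scaling, filters and thresholds, and libraries left out. Locations came from GENCODE v44.

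The members and lists were chosen with earlier results of these data known. Named were all 9 members, the other complement genes that passed the filter, the 8 called regulators of smallest adjusted p under EGF, and the 3 genes of highest Pearson correlation with C3, CFB and CD55. Intervals and floors of 3 counts cover counting error or the spread between libraries only. Some genes that this rule names are not reported here.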

Additional observations from a re-analysis of the deposited data

How the results depend on the processing

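Over 23 alternatives, 182 of 183 member values of EGF against untreated kept their direction and their side of the threshold, the exception being CD46 with adjusted p alone, and 162 of 180 did so for bleogen pB1 against untreated and 175 of 183 for EGF against bleogen pB1. Upper-quartile scaling moved the median of all genes to −0.118 for EGF against untreated and turned no member. For bleogen pB1 against untreated, CD59 was at 0.00347 with no scaling factors, 0.00439 with limma on log2(FPKM + 1) with or without an FPKM filter, 0.00455 with a pseudocount of 0.1, 0.0158 without untreated replicate 2 and 0.0242 without bleogen pB1 replicate 3 (lowest −0.0321 with a library left out). C3 was at −0.0238 without untreated replicate 3 and −0.0648 without bleogen pB1 replicate 1 (highest 0.138 with a library left out), and CD59 of EGF against bleogen pB1 at 0.0110 without EGF replicate 1 (lowest −0.0677). The number of members called for bleogen pB1 was 0 with limma on log2(FPKM + 1), with or without the filter, with a log2 limit of 1 and with glmTreat, 2 with adjusted p alone, and 0 to 1 with a library left out. Of the other complement genes, 4 were called under EGF with limma and the FPKM filter, which removes low genes, and 5 to 8 with a library left out. For bleogen pB1 they numbered 1 in the main fit. The count was 0 with no scaling factors, limma at either pseudocount or with the filter, a limit of 1 or glmTreat. It was 2 with adjusted p alone, and 0 to 2 with a library left out. For EGF against bleogen pB1, 4 lower and 1 higher were called in the main fit. The count was 3 with limma on log2(FPKM + 1), with or without the filter, and 4 to 5 with a library left out. In that comparison, C1S was not called with limma on log2(FPKM + 1) (−0.43), a limit of 1 or glmTreat, CFI with limma (−0.44, on a scale that understates low genes) or glmTreat, and CD55 with a limit of 1 (0.84). Under EGF, IFNGR2, IL6ST and IRF1 were not called with a limit of 1 or glmTreat, and C1QBP and CEBPB not with a limit of 1. IFNGR2 was also not called with no scaling factors, limma or a filter of 10 counts in every library. All genes called under EGF numbered 4578, and 8187, 1892 and 2919 with adjusted p alone, a limit of 1 and glmTreat. The same rules gave 509, 31 and 5 in place of 183 for bleogen pB1, which ranged from 102 to 436 with a library left out, and 7214, 1458 and 2026 in place of 3564 for EGF against bleogen pB1. DESeq2 called 6, 1 and 6 members in the 3 comparisons. Not every same-numbered pair correlated above 0.1, so the replicate numbers were not taken as pairing the samples (correlations of same-numbered deviations of 0.0449, 0.0355 and 0.0039 for EGF against untreated, 0.207, −0.0304 and 0.113 for bleogen pB1 against untreated and 0.0562, 0.0378 and 0.0269 for EGF against bleogen pB1), and a replicate block gave 6, 1 and 6 members called and changed no member's call. With Spearman correlation, 0 of the 3 genes most like C3, CFB and CD55 were among the first 3. The cause of these shifts was not tested. Counts were low for SERPING1, C4A, ITGAM and the 22 complement genes too low to test. Those of ITGAM also differed between the EGF libraries (8, 50 and 36).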
